A study of Gossypium hirsutum with 6 samples.

Results

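Gh_D10G123800 and Gh_A10G149600 are the 2 most abundant expansin genes of the elongating cotton fiber, and they are described here across 6 fiber libraries. They were picked by gene identifier from the 73622 genes of the deposited table, because their levels stood far above those of every other expansin in these same libraries. Their levels and ranks are therefore a description and carry no test. The samples were fibers of upland cotton (Gossypium hirsutum, strain 63) collected 15 days and 5 days post-anthesis, named 15DPA and 5DPA, where anthesis is the day of flowering. No mutant, transgene or treatment is given in the labels, both stages share the strain and the tissue, and each stage has 3 libraries that the series calls biological replicates. Poly(A) RNA was sequenced as paired ends, and the table gives a read count and an FPKM value (reads per kilobase of gene model and per 1 M counts of the library) for each gene. Library totals lay between 15.61 and 16.94 M counts. In 15DPA replicate 3, 35 genes reached 20 reads while their reads in the other 5 libraries summed to 0 or 1; the other libraries had 0 to 5 genes of this kind. Tests are also given without that library.

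Expansins are small secreted proteins that loosen plant cell walls. They act on the contacts between cellulose and other wall polysaccharides without cutting them, and they work best in an acid wall, so that proton export by the plasma membrane assists them. A cotton fiber is a single cell of the seed coat epidermis that elongates for weeks, and alpha expansins are among the best known transcripts of that growth. Upland cotton is a tetraploid with an A and a D subgenome, so most genes exist as an A copy and a D copy.

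Gh_D10G123800 lies on the plus strand of chromosome D10, positions 19208807 to 19210097, and its model has 1139 bases of transcript. Gh_A10G149600 lies on the minus strand of chromosome A10, positions 83948169 to 83949465, with 1138 bases. The genome build is not given in the sources used here. The closest Swiss-Prot entries were the Arabidopsis protein Expansin-A8 for the D10 gene and the rice protein Expansin-A2 for the A10 gene. The NR protein database gave both the same name, expansin-A4-like precursor, and no other gene of the table had it.

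The surroundings of the genes were compared through the descriptions of the 15 genes on either side of each. On D10, 17 of 30 neighbours (56.7%) had a description that also occurred around the A10 gene, and on A10 it was 16 of 30 (53.3%). For 14 descriptions there was 1 gene on each chromosome. All 14 of these pairs ran in opposite order along the chromosomes and lay on opposite strands, as did the expansin genes themselves. On one flank both expansin genes had a gene described as DETOXIFICATION 53, a transporter of the MATE type, and on the other flank one described as Non-specific lipid-transfer protein 6. By their position Gh_D10G123800 and Gh_A10G149600 are thus referred to below as the D copy and the A copy. No gene model overlapped either of them in the table. The nearest was 7.9 kb away on D10 and 1.3 kb away on A10. How reads that fit both copies were assigned is not given in the sources used here, so the split between the copies is uncertain. Their sum is uncertain too if such reads were dropped or counted for each copy.

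Both copies were among the most abundant transcripts of the fiber at both stages and stood higher at 15DPA. The D copy had 6563, 4599 and 6611 FPKM in 15DPA replicates 1, 2 and 3, against 3015, 2036 and 2890 FPKM in 5DPA replicates 1, 2 and 3. The A copy had 5931, 4139 and 6294 FPKM in the 15DPA libraries, against 3124, 2021 and 2791 FPKM in the 5DPA libraries. The stages did not overlap for either copy, and replicate 2 was the lowest library of its stage for both. In FPKM, 12.9% of all genes tested had non-overlapping ranges with 15DPA higher, and 37.3% had them with 15DPA lower. The lowest 15DPA library exceeded the highest 5DPA library 1.53-fold for the D copy and 1.33-fold for the A copy.

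**Figure D1:**
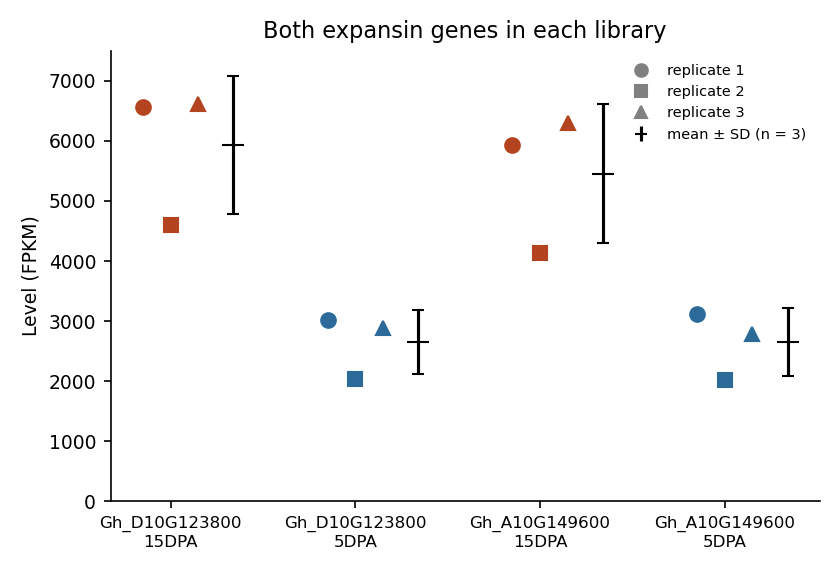
Level in FPKM (linear axis from 0) of both expansin genes in each library, 15DPA left of 5DPA, with the replicate shown by the symbol and the mean ± SD of 3 libraries beside it. The 15DPA libraries of the D copy lie between 4599 and 6611 FPKM and the 5DPA libraries between 2036 and 3015 FPKM, and replicate 2 is lowest in all 4 groups.

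The read counts behind these levels were large. The D copy had 121609, 88730 and 117589 reads at 15DPA and 53620, 38542 and 54283 reads at 5DPA. The A copy had 109790, 79778 and 111847 reads at 15DPA and 55511, 38218 and 52372 reads at 5DPA. Counting error alone was 0.287% to 0.512% of a value, while the coefficient of variation between libraries of a stage was 19.4% at 15DPA and 20.1% at 5DPA for the D copy, and 21.2% and 21.4% for the A copy. The spread between libraries, not the depth, thus set the precision.

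As a share of all counts, the D copy took 0.748%, 0.524% and 0.753% of the 15DPA libraries, against 0.343%, 0.232% and 0.329% of the 5DPA libraries. The exact (Clopper-Pearson) 95% interval of the first of these shares was 0.743% to 0.752%, and such intervals cover counting error only. The A copy took 0.675%, 0.471% and 0.716% of the 15DPA counts, against 0.356%, 0.230% and 0.318% of the 5DPA counts. Together the copies held 1.30% ± 0.262 of all 15DPA counts and 0.603% ± 0.125 of all 5DPA counts (SD, n = 3 each). Among the counts of the 100 most abundant genes they held 7.81% ± 0.580 at 15DPA and 5.35% ± 0.604 at 5DPA, so the gain was present within the abundant transcripts too.

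By FPKM the D copy ranked 7th, 6th and 7th in the 15DPA libraries and 10th, 12th and 10th in the 5DPA libraries. The A copy ranked 8th in all 15DPA libraries, and 9th, 13th and 12th in the 5DPA libraries. By the mean of each stage the copies stood next to each other, at ranks 7 and 8 for 15DPA and at ranks 11 and 12 for 5DPA. At 15DPA the gene above them was Gh_A05G145000, described as Protein E6, a cotton fiber protein, with 6094 ± 1324 FPKM, and the gene below was Gh_A01G249700, a metallothionein-like protein 2 gene, with 5308 ± 1287 FPKM (SD, n = 3). At 5DPA they lay between Gh_D04G040400, described as Protodermal factor 1 after a proline-rich protein of the Arabidopsis epidermis, with 2746 ± 220 FPKM, and the lipid-transfer protein gene Gh_A10G149900 with 2306 ± 90.1 FPKM (SD, n = 3). The copies had 5925 ± 1148 (D) and 5454 ± 1154 (A) FPKM at 15DPA and 2647 ± 533 (D) and 2645 ± 566 (A) FPKM at 5DPA (SD, n = 3). These neighbours in rank differed from the copies by less than the SD of the copies between libraries.

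The 5 most abundant genes over all 6 libraries were Gh_D05G160200 (Protein E6), Gh_A10G150000 and Gh_D10G123300 (non-specific lipid-transfer proteins, small secreted carriers of lipids), Gh_A02G045600 (proline-rich protein-1) and Gh_D09G134700 (fiber protein Fb10). In the edgeR test between stages described next the lipid-transfer genes passed and the others did not, but DESeq2 also called the others higher. Gh_D05G160200 held 10411 ± 2183 FPKM in 15DPA fibers, against 6432 ± 1127 FPKM in 5DPA fibers (SD, n = 3 each; edgeR adjusted p = 0.0553).

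**Figure D2:**
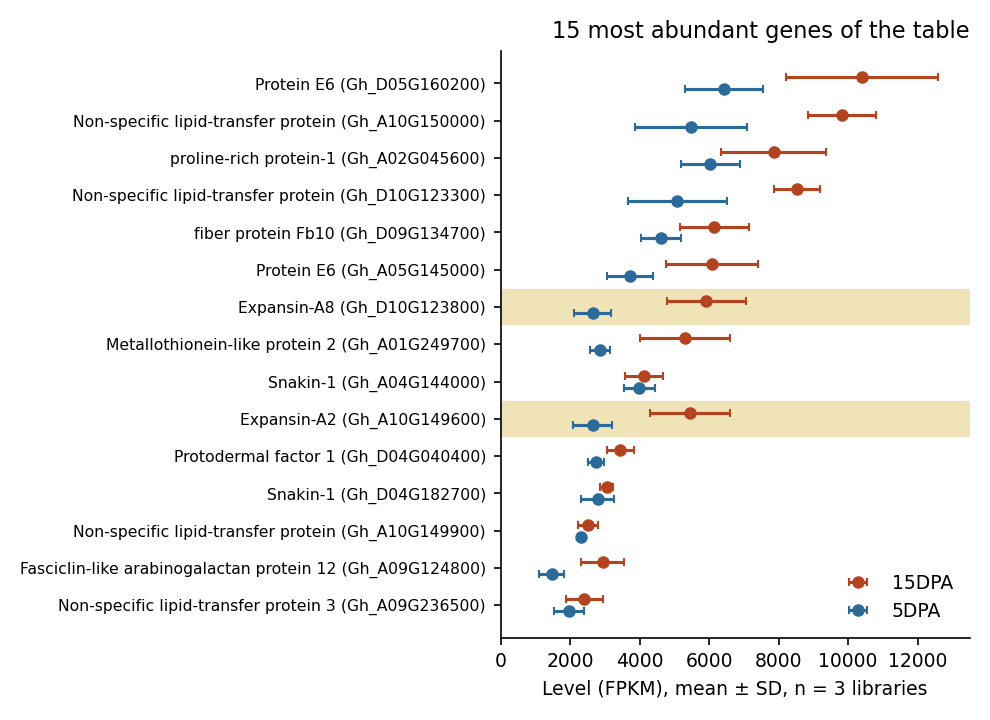
The 15 genes of highest mean FPKM, ordered from the top, as mean ± SD of 3 libraries at 15DPA (red, upper point) and 5DPA (blue, lower point) on a linear FPKM axis. The shaded rows are the D copy, 7th with 4286 FPKM, and the A copy, 10th with 4050 FPKM.

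The stages were compared with edgeR's quasi-likelihood test on the counts, with TMM scaling between libraries, over 40054 genes with a mean of at least 1 FPKM. Of these, 23.4% passed a Benjamini-Hochberg adjusted p of 0.05, 13.0% as higher and 10.4% as lower at 15DPA. The D copy was higher at 15DPA by 1.46 ± 0.31 on the log2 scale (SE, edgeR adjusted p = 0.0182). The A copy was higher by 1.35 ± 0.32 (SE, edgeR adjusted p = 0.0242). Both changes were known when the genes were chosen and give no independent support. In bulk fibers, a change in the number of cells of a type and a change in RNA per cell cannot be told apart. The log2 changes of the copies were large but not extreme among all genes. Of the genes tested, 3.88% had a larger log2 change than the D copy and 4.58% a larger one than the A copy. Among the 36 genes with a mean of at least 1000 FPKM, of which 19 passed as higher and 0 as lower, the D copy had the 4th and the A copy the 6th largest log2 change, and the median of the 36 was 1.00.

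The scaling moved these values but not their direction. With library totals alone the log2 change was 1.16 for the D copy and 1.04 for the A copy. The median of all genes was then −0.33, against −0.04 with TMM, and the calls over all genes split into 2899 higher and 7701 lower, against 5206 higher and 4151 lower with TMM. Relative to these medians the D copy rose by 1.49 and 1.50, and the A copy by 1.37 and 1.39. After quantile normalization the changes shrank to 0.56 for the D copy (limma adjusted p = 0.0297) and to 0.42 for the A copy, which no longer passed (limma adjusted p = 0.129). Counted as 1 gene, both copies together rose by 1.41 ± 0.34 on the log2 scale (SE, edgeR adjusted p = 0.025). This sum does not depend on how the counted reads were split between the copies. It could still be affected if reads that fit both were dropped or counted for each.

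The calls rested on few libraries, and so did calls over all genes tested. With all libraries 9357 genes were called. The number was 2319, 11434 and 9632 without 15DPA replicates 1, 2 and 3, and 4786, 2338 and 4234 without 5DPA replicates 1, 2 and 3. The D copy did not pass without 15DPA replicate 1 (edgeR adjusted p = 0.0789), 5DPA replicate 1 (0.0572) or 5DPA replicate 2 (0.0757). Of the 6 fits that left out a library, the A copy passed only in the one without 15DPA replicate 2. Its edgeR adjusted p without each of the others in turn was 0.0973 and 0.0552 (15DPA replicates 1 and 3) and 0.064, 0.0931 and 0.0596 (5DPA replicates 1, 2 and 3). With a library left out the log2 change stayed between 1.28 and 1.67 for the D copy and between 1.16 and 1.57 for the A copy.

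Marker genes of fibers were high in all libraries, and markers of other cell types also moved with the stage. The called counts of these lists stand beside 13.0% higher and 10.4% lower of all genes tested. Of 72 fiber marker genes 39 were tested, 13 were higher and 3 lower, and 11 had no read; their FPKM summed to 23958 to 34748 at 15DPA and 16227 to 21780 at 5DPA. Within this list Protein E6 and fasciclin-like genes were high, and genes described as RAC9 summed to at most 0.795 FPKM. Of 163 markers of dividing cells, such as histones, 147 were tested, 2 were higher and 94 lower, and 8 had no read. They summed to 1825, 2700 and 1725 FPKM in 15DPA fibers, against 7168, 10116 and 6794 FPKM in 5DPA fibers, so replicate 2, lowest for the pair at each stage, was highest for these markers. Of 70 photosynthesis markers 22 were tested, 7 were lower, 8 had no read, and the list summed to 35.9 to 60.3 FPKM in 15DPA fibers, against 95.03 to 119.3 FPKM in 5DPA fibers.

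Of 57 seed storage markers 17 were tested and 7 were higher, and 23 had no read. The sums were 131.0 to 145.9 FPKM in 15DPA fibers, against 141.8 to 156.2 FPKM in 5DPA fibers, with all legumin and 2S albumin genes at 0. Vicilin genes gave 47.1 to 50.1 FPKM of these sums at 15DPA and 46.2 to 53.7 FPKM at 5DPA. Oleosin genes gave 14.1 to 18.5 FPKM at 15DPA and 10.4 to 15.99 FPKM at 5DPA. Genes matched by the word globulin gave 69.8 to 79.3 FPKM of these sums at 15DPA and 74.6 to 92.1 FPKM at 5DPA. That word also matches proteins that are not seed storage proteins, so the list is not specific to seed storage tissue. Of 112 vascular or lignified tissue markers 5 were tested and 3 were higher, and 39 had no read. The sums were 59.7 to 66.6 FPKM in 15DPA fibers, against 35.8 to 58.6 FPKM in 5DPA fibers. Of these genes 104 were laccases, which gave 57.1 to 65.3 FPKM at 15DPA and 35.2 to 57.2 FPKM at 5DPA. The part of these markers in the rise of the pair was not tested. Within a library, the pair divided by the summed FPKM of Protein E6 genes, a ratio chosen after its values were seen, was 0.639, 0.680 and 0.658 at 15DPA and 0.571, 0.491 and 0.483 at 5DPA. The stages did not overlap in this ratio, which is a description and carries no test.

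The balance between the copies was close to even and leaned to the D copy at 15DPA. Of the reads on the pair, 52.6%, 52.7% and 51.3% fell on the D copy in 15DPA replicates 1, 2 and 3, against 49.1%, 50.2% and 50.9% in 5DPA replicates 1, 2 and 3. The stages did not overlap, but the highest 5DPA library and the lowest 15DPA library were close. The exact 95% interval was 51.05% to 51.46% for 15DPA replicate 3 and 50.6% to 51.2% for 5DPA replicate 3, so these intervals overlapped. The log2 ratio of D to A in FPKM was 0.12 ± 0.05 at 15DPA and 0.00 ± 0.05 at 5DPA (SD, n = 3 each). The difference of 0.12 gave an exact two-sided permutation p of 0.1, the smallest that 3 libraries against 3 can give. This ratio is formed within a library and does not depend on scaling between libraries. Over all genes on A and D chromosomes, the D chromosomes took 50.9% ± 0.0781 of 15DPA counts and 50.8% ± 0.17 of 5DPA counts (SD, n = 3 each), with overlapping ranges.

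**Figure D3:**
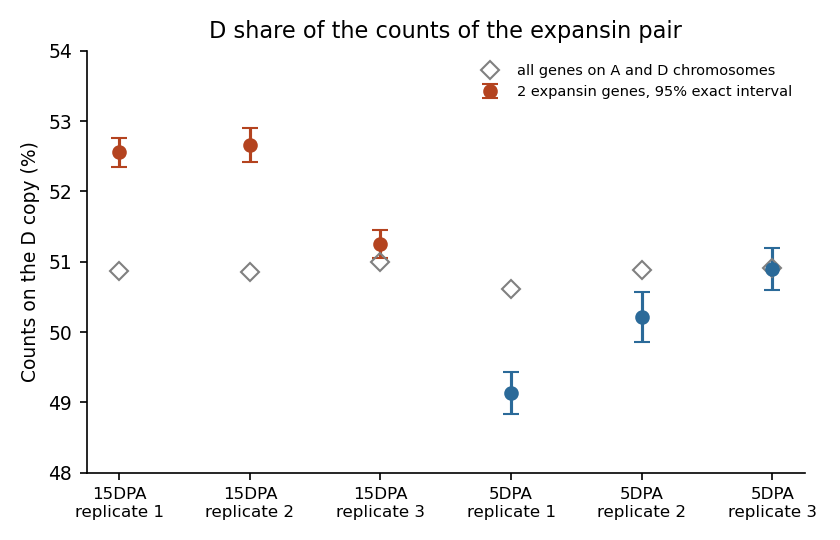
Percent of the reads of the expansin pair that fell on the D copy (filled points, red for 15DPA and blue for 5DPA, with exact 95% intervals for counting error), and percent of all reads on A and D chromosomes that fell on D chromosomes (open diamonds). The axis runs from 48% to 54%. The 15DPA libraries lie at 51.3% to 52.7% and the 5DPA libraries at 49.1% to 50.9%.

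Within the expansin family the pair stood apart in level. A description naming an expansin was found for 97 genes, of which 42 passed the filter on level, 36 had reads but stayed below it and 19 had no read in any library. The pair held 96.9%, 94.5% and 95.6% of the summed FPKM of the family in the 15DPA libraries, against 94.3%, 90.0% and 92.7% in the 5DPA libraries. The stages did not overlap, although 15DPA replicate 2 and 5DPA replicate 1 were nearly equal. The 95 other genes summed to 405, 508 and 590 FPKM in 15DPA fibers, against 372, 451 and 445 FPKM in 5DPA fibers, with overlapping ranges. Of the difference between the stage means of the family sum, 98.7% lay in the pair.

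The next expansin, Gh_A03G056700, described as Expansin-A4, ranked 2174th of all genes with a mean of 56.3 FPKM, and the D copy exceeded it 76.1-fold in mean FPKM. At 15DPA the highest of the other expansins was Gh_D07G105800, also described as Expansin-A4, and the A copy exceeded it 67.8-fold. At 5DPA the highest was Gh_A12G200600, described as Expansin-A1, and the A copy exceeded it 49.6-fold. Gh_A03G056700, with 66.0 ± 14.8 FPKM in 15DPA fibers, against 46.7 ± 8.60 FPKM in 5DPA fibers (SD, n = 3 each), differed from the highest minor gene of either stage by less than the SD between libraries.

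Of the 40 other expansins tested, 7 (17.5%) were called higher and 13 (32.5%) lower at 15DPA, beside 13.0% and 10.4% of all genes tested, with a median log2 change of −0.27. Scaled by library totals alone, 5 were higher and 15 lower with a median of −0.53, and at a mean of at least 5 FPKM 6 were higher and 6 lower with a median of 0.12. Of the 40, 6 had a mean under 1 FPKM in 1 of the stages and met the filter through the other stage, and 4 of these were among the 13 lower ones. Without 15DPA replicate 2 the median was −0.88. The 20 calls were 8 in number without 15DPA replicate 1, and 10, 5 and 7 when 5DPA replicates 1, 2 and 3 were left out in turn. Calls over all genes tested fell as well in these fits, from 9357 to 2319 without 15DPA replicate 1. They fell to 4786, 2338 and 4234 without 5DPA replicates 1, 2 and 3.

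Some minor expansins had larger log2 changes than the pair, a difference that was not tested. Gh_D04G012100, described as Expansin-A8 like the D copy, had 53.0 ± 4.66 FPKM in 15DPA fibers, against 1.38 ± 0.668 FPKM in 5DPA fibers (SD, n = 3 each), so it rose by 5.55 ± 0.38 on the log2 scale (SE, edgeR adjusted p = 0.00146). Gh_D07G105800 had 80.4 ± 32.5 FPKM in 15DPA fibers, against 10.3 ± 3.42 FPKM in 5DPA fibers (log2 change 3.25, edgeR adjusted p = 0.00394). Gh_D05G280000, a further Expansin-A8 gene, had 6.38, 5.17 and 43.4 FPKM in the 15DPA libraries and 1.26, 1.03 and 1.74 FPKM in the 5DPA libraries (edgeR adjusted p = 0.0211). Its level at 15DPA was carried by replicate 3, and its log2 change was 4.09 with all libraries and 2.37 without that library; it did not pass when any 5DPA replicate was left out (edgeR adjusted p up to 0.0868). Gh_A07G079500, described as Expansin-A13, rose by 0.83 ± 0.15 (SE, edgeR adjusted p = 0.0125), a call lost when 15DPA replicate 1 or 5DPA replicate 2 was left out (edgeR adjusted p up to 0.0573). Gh_A03G056700 rose by 0.79 ± 0.23 (SE, edgeR adjusted p = 0.0448), with overlapping ranges in FPKM, and did not pass without 15DPA replicates 1 or 3 or 5DPA replicates 1 or 2 (up to 0.15), nor with library totals alone (0.106), by limma at any setting (0.0932 to 0.155) or among genes averaging 5 FPKM or more (0.0504).

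In the other direction, Gh_Contig00579G000300, described as Expansin-A6, had 1.65 ± 1.79 FPKM in 15DPA fibers, against 11.7 ± 6.37 FPKM in 5DPA fibers (edgeR adjusted p = 0.0343). Gh_D05G093400, an Expansin-A4 gene, had 5.43 ± 2.11 FPKM in 15DPA fibers, against 11.9 ± 0.171 FPKM in 5DPA fibers (edgeR adjusted p = 0.0342). Both falls lost their call when 15DPA replicate 1 or any 5DPA replicate was left out (edgeR adjusted p up to 0.122 and 0.117). Gh_A12G200600 had 16.5 ± 12.8 FPKM in 15DPA fibers, against 53.3 ± 10.6 FPKM in 5DPA fibers, but missed the threshold (edgeR adjusted p = 0.137). The abundant members Gh_D09G166300 (Expansin-A6), Gh_D07G079700 (Expansin-A13) and Gh_D03G140200 (Expansin-A4) held 29.8 ± 11.5, 23.2 ± 3.48 and 17.4 ± 5.89 FPKM at 15DPA and 29.0 ± 6.48, 26.4 ± 0.873 and 18.1 ± 2.07 FPKM at 5DPA (SD, n = 3). None of these 3 passed, and their edgeR log2 changes were 0.35, 0.12 and 0.22.

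**Figure D4:**
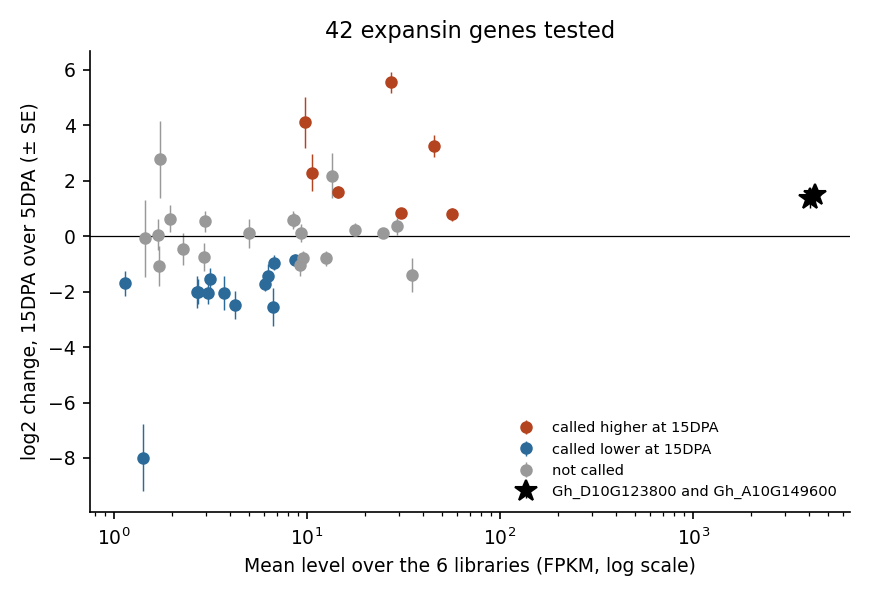
Mean FPKM over the 6 libraries (log axis) against the log2 change of 15DPA over 5DPA with its SE, for the 42 expansin genes tested; red and blue points were called higher and lower at 15DPA and grey points were not called. The pair (stars) lies at 4286 and 4050 FPKM with changes of 1.46 and 1.35, and the other genes lie at or below 56.3 FPKM; the lowest point, Gh_A05G298800, had no read at 15DPA, so its fitted change depends on a prior count.

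Other wall-loosening genes were counted from lists matched by description. Of 36 xyloglucan endotransglucosylase/hydrolase genes tested, whose enzymes cut and rejoin xyloglucan in growing walls, 7 rose and 7 fell, beside 13.0% and 10.4% of all genes tested, with a median log2 change of 0.01, which scaling by library totals alone turned to −0.28. The most abundant, Gh_D11G054000, had 1219, 782 and 1298 FPKM in 15DPA fibers, against 434, 302 and 478 FPKM in 5DPA fibers. It rose by 1.75 ± 0.32 on the log2 scale (SE, edgeR adjusted p = 0.0122). As in the expansin pair, replicate 2 was the lowest library of each stage. Gh_D11G064800 had 653 ± 52.8 FPKM in 15DPA fibers, against 674 ± 109 FPKM in 5DPA fibers, and missed the threshold (edgeR log2 change 0.25). The 14 calls of this list fell to 6 without 15DPA replicate 1 or 5DPA replicate 2 and to 9 without 5DPA replicate 3, and Gh_D11G054000 did not pass without the first (edgeR adjusted p up to 0.0542) or the second of these. Calls over all genes tested also fell in these fits, from 9357 to 2319, 2338 and 4234.

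Plasma membrane proton pumps acidify the wall in which expansins act. Of 22 such genes 4 were tested, and edgeR called 0 of them, with 1 at an unadjusted p under 0.05. Over all genes tested edgeR called 13.0% higher and 10.4% lower, and 4 genes are too few to compare with these shares. DESeq2 called 1 of the 4 lower, beside 4855 of all 40054 genes tested. Gh_A03G081200, described as ATPase 11, had 78.6 ± 12.0 FPKM in 15DPA fibers, against 95.5 ± 6.91 FPKM in 5DPA fibers (SD, n = 3 each). Gh_D10G050600, described as ATPase 10, had 70.3 ± 7.95 FPKM in 15DPA fibers, against 82.1 ± 7.29 FPKM in 5DPA fibers. With TMM scaling the edgeR log2 change was 0.004 for Gh_A03G081200 and 0.064 for Gh_D10G050600. With library totals alone 2 of the 4 pumps were called lower, beside 7701 of all 40054 genes tested.

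Very abundant lipid-transfer protein genes lay near both expansin copies. On D10 the 4 lipid-transfer genes on that flank of the D copy, at distances of 43.3 to 125.1 kb, differed widely in level. The farthest, Gh_D10G123300, had 8535 ± 661 FPKM in 15DPA fibers, against 5083 ± 1425 FPKM in 5DPA fibers (SD, n = 3 each; log2 change 1.04, edgeR adjusted p = 0.0398). Gh_D10G123500 had 982 ± 187 FPKM in 15DPA fibers, against 1081 ± 124 FPKM in 5DPA fibers, and missed the threshold (edgeR log2 change 0.16). Gh_D10G123600 fell to 85.0 ± 20.8 FPKM at 15DPA, against 250.2 ± 55.4 FPKM at 5DPA (log2 change −1.28, edgeR adjusted p = 0.00967). Gh_D10G123700, next to the D copy, had no read in any library.

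On A10 the same flank held 3 lipid-transfer genes. Gh_A10G150000, 362 kb from the A copy, had 9821 ± 987 FPKM in 15DPA fibers, against 5483 ± 1616 FPKM in 5DPA fibers (log2 change 1.14, edgeR adjusted p = 0.0357). Gh_A10G149900 had 2520 ± 290 FPKM in 15DPA fibers, against 2306 ± 90.1 FPKM in 5DPA fibers, and missed the threshold by edgeR but not by DESeq2 (DESeq2 adjusted p = 0.0467). Gh_A10G149700, next to the A copy, fell to 2.03 ± 0.583 FPKM at 15DPA, against 18.4 ± 5.52 FPKM at 5DPA (log2 change −2.88, edgeR adjusted p = 0.00264). The lipid-transfer genes beside the pair thus included rises and falls on both chromosomes, and those rises, unlike the falls, did not pass when any library other than 15DPA replicate 2 was left out (edgeR adjusted p up to 0.136). After quantile normalization the rises were 0.17 for Gh_A10G150000 (limma adjusted p = 0.471) and 0.31 for Gh_D10G123300 (limma adjusted p = 0.167), and neither passed. Gh_D10G123300 also missed with limma on log2(FPKM + 0.1), at an adjusted p of 0.0549. Gh_D10G123500 turned to −0.73 after quantile normalization and passed there (limma adjusted p = 0.0141). The DETOXIFICATION 53 gene on the other flank had no read on D10 and at most 0.0871 FPKM in a stage mean on A10. The gene beyond it on A10, Gh_A10G149400, had 26.5 ± 1.96 FPKM in 15DPA fibers, against 29.7 ± 3.01 FPKM in 5DPA fibers (edgeR log2 change 0.12). Of the 30 neighbours, 15 were tested on D10 with 3 higher and 1 lower, and 16 on A10 with 3 higher and 2 lower, beside 13.0% higher and 10.4% lower of all genes tested. The median mean level of the 30 was 1.16 FPKM on D10 and 2.11 FPKM on A10, far below the level of the pair.

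**Figure D5:**
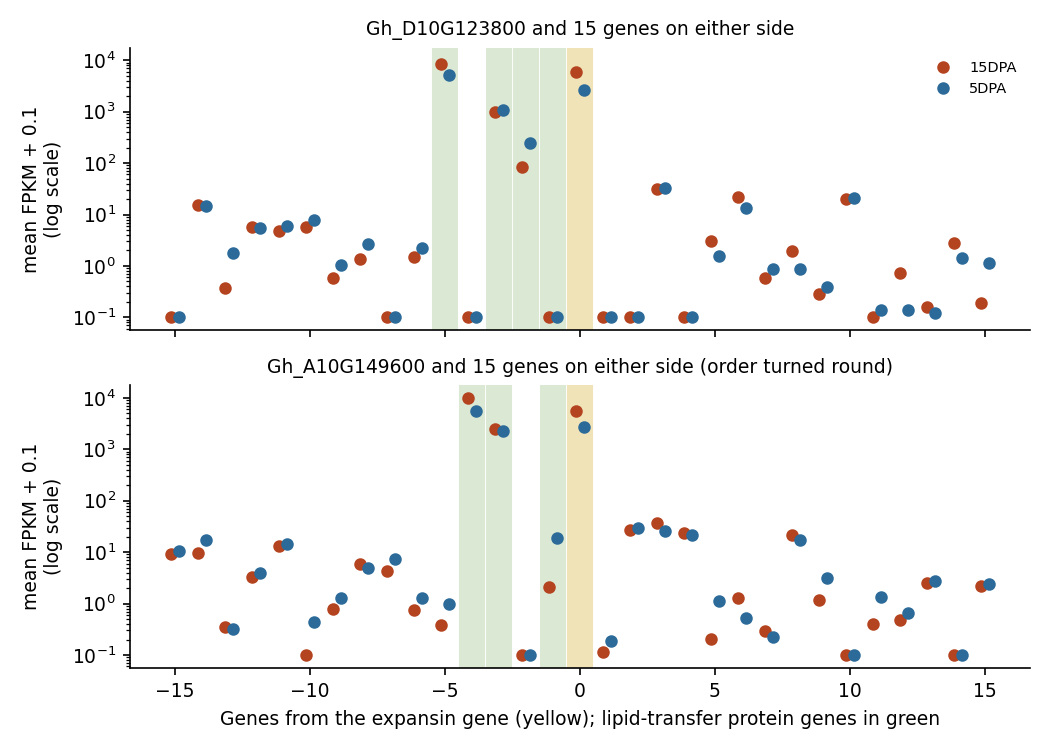
Mean FPKM + 0.1 (log axis) at 15DPA (red) and 5DPA (blue) of each expansin gene (yellow) and of 15 genes on either side, by gene order; the A10 order is turned round so that matching flanks line up, and lipid-transfer protein genes are green. The expansin gene and the lipid-transfer genes Gh_D10G123300, Gh_D10G123500, Gh_D10G123600, Gh_A10G149900 and Gh_A10G150000 stand above all other neighbours, including the lipid-transfer genes next to each expansin gene, with Gh_D10G123700 at 0.

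The genes whose pattern over the 6 libraries was most like that of each copy were found by the SD of the log2 ratio of FPKM, among 13815 other genes with a mean of at least 10 FPKM and no 0. The A copy was 3rd in likeness to the D copy, with an SD of 0.0786, and the D copy was 5th in likeness to the A copy. The median SD over all genes compared was 0.803 for the D copy and 0.756 for the A copy. For the D copy the others were Gh_A05G265700 (hypothetical protein, SD 0.0656), Gh_D03G176100 (Flavonoid 3'-monooxygenase, 0.066), Gh_A09G197300 (RHOMBOID-like protein 1, 0.0836) and Gh_D05G052400 (BURP domain protein RD22, 0.0884). For the A copy they were Gh_D01G174500 (an F-box/kelch-repeat protein, 0.0653), Gh_D13G232000 (Bifunctional purple acid phosphatase 26, 0.0704), Gh_A06G119400 (a protein phosphatase 2C, 0.0735) and Gh_D05G193000 (a mannan endo-1,4-beta-mannosidase, 0.0739). Their mean levels at 15DPA ran from 22.1 FPKM for Gh_D01G174500 to 1874 FPKM for Gh_D05G052400. The measure rests on 6 libraries that share the difference between stages, so any gene with a like rise and a like low value in both replicates numbered 2 scores well.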

How the data were processed

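The members and gene lists were chosen with earlier results of these data known. The authors deposited, per the file headers, a whole-number read count and an FPKM value per gene and library; HISAT and StringTie appear, with no version, in the submitters' processing notes. Which build, annotation, counting settings and strand use were chosen is not given in the sources used here. The deposited FPKM values match count per kilobase and per 1 M counts to within 0.0643 FPKM in all 441732 values. Left out were 2 empty lines. Genes whose mean FPKM reached 1 (40054, with 99.34% of counts) were tested with edgeR 4.0.16 (glmQLFit, glmQLFTest, TMM) in R 4.3.3, two-sided, with Benjamini-Hochberg adjustment; the SE is the log2 change divided by the root of the quasi-F statistic. The script was tested on simulated data. Single values were compared by exact permutation (scipy 1.17.1). Alternatives used DESeq2 1.42.0, limma 3.58.1 on log2(FPKM + 1) or log2(FPKM + 0.1), quantile normalization, other scalings and filters, the replicate number as a block, and each library left out. Descriptions come from Swiss-Prot, or NR where there was none. Named genes are, by rule, the 8 most abundant further expansins, the 2 largest called rises and falls at 10 FPKM or more, the 2 most abundant genes of each other list, the 5 most abundant genes, rank and chromosome neighbours, and the 5 genes most alike. No sequence of either gene was used here. The p-values measure the spread between the libraries that the series calls biological replicates.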

Additional observations from a re-analysis of the deposited data

How the results depend on the processing

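The log2 changes of both copies kept their direction under every alternative run. They passed under each scaling, filter and tool, except the A copy after quantile normalization (0.42, limma adjusted p = 0.129). With a library left out they ran from 1.28 to 1.67 for the D copy and from 1.16 to 1.57 for the A copy. Calls over all genes then ran from 2319 (without 15DPA replicate 1) to 11434 (without 15DPA replicate 2). Those over expansins ran from 5 to 22, over xyloglucan genes from 6 to 15 and over proton pumps from 0 to 1. At a mean FPKM of at least 5, 14 expansins were called of the 25 left. Proton pump calls numbered 2 with library totals alone and with limma on log2(FPKM + 1), and 1 each with DESeq2, limma on log2(FPKM + 0.1), quantile normalization, no filter and a mean FPKM of at least 5. The cause was not tested. The difference of 0.12 between the copies ran from 0.09 to 0.15 with a library left out, the difference in the share of counts from 0.606 to 0.843 percentage points, and that in the share of expansin FPKM from 2.16 to 4.30.

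Whether the replicate numbers pair the libraries is not given in the sources used here. Deviations from the stage means correlated at −0.268, 0.274 and 0.055 between same-numbered libraries, and at −0.309 to 0.219 between the others. With 3 libraries per stage these values cannot decide the pairing. With the replicate number as a block, edgeR called 8967 genes, and the copies had log2 changes of 1.46 (D) and 1.34 (A) with adjusted p = 0.00731 and 0.00876; paired by number, the exact permutation p of the difference between the copies was 0.25, the smallest 3 pairs allow. Some named genes that edgeR did not call, with log2 changes above 0 in the main fit, changed sign or reached 0. The values with library totals alone, limma on log2(FPKM + 1), limma on log2(FPKM + 0.1) and quantile normalization were −0.28, −0.29, −0.29 and −0.18 for Gh_A03G081200, −0.22, −0.22, −0.23 and −0.12 for Gh_D10G050600, −0.19, −0.19, −0.20 and −0.081 for Gh_D07G079700, −0.17, −0.16, −0.17 and −0.061 for Gh_A10G149400, −0.14, −0.15, −0.15 and −0.73 (limma adjusted p = 0.0141) for Gh_D10G123500, and −0.046, −0.037, −0.037 and −0.43 for Gh_D11G064800. The first 3 of these settings gave −0.054, −0.10 and −0.11 for Gh_D03G140200. Quantile normalization gave −0.20 for Gh_A02G045600, −0.27 for Gh_A10G149900, −0.40 for Gh_D09G134700 and 0 for Gh_D05G160200. For Gh_A02G045600, Gh_D09G134700 and Gh_D05G160200, whose log2 changes were 0.69, 0.72 and 1.00, DESeq2 gave adjusted p = 0.0179, 0.00582 and 0.00108 and edgeR with the replicate block 0.0384, 0.0495 and 0.0169. A mean FPKM of at least 5 gave −0.10 for Gh_A03G081200 and −0.043 for Gh_D10G050600. With a library left out, values ran from −0.053 to 0.087 for Gh_A03G081200, from −0.0034 to 0.15 for Gh_D10G050600, from −0.0056 to 0.29 for Gh_D07G079700, from −0.054 to 0.54 for Gh_D09G166300 and from −0.036 to 0.31 for Gh_D10G123500.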
